A study of Mus musculus with 8 samples.

Results

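Transcripts of 6 adhesion G protein-coupled receptors (Adgrg1, Adgrg3, Adgrg7, Adgre5, Adgrl1 and Adgrl4) were followed in leukaemic mouse spleen with and without knockdown of the histone demethylase Kdm1a. They were taken from the deposited table by matching its Ensembl identifiers to these symbols in GENCODE M21, and come from a set of 7 among the 30 adhesion receptor genes in it and its 54018 identifiers. The set was chosen with the difference between knockdown and control libraries known, so that difference is described for them and not tested. RNA came from splenic mononuclear cells of C57BL/6 mice with leukaemia, and all 8 libraries carried the Eµ-TCL1A transgene, which expresses the human oncogene TCL1A in B cells and models chronic lymphocytic leukaemia. The 4 knockdown libraries (genotype Kdm1aKD;Eµ-TCL1A, replicates 1, 2, 4 and 5) came from mice that also carried a doxycycline-inducible construct lowering Kdm1a, in which doxycycline was given once leukaemia was present. The 4 control libraries (genotype Eµ-TCL1A, replicates 1 to 4) lacked that construct. The labels do not say whether control mice received doxycycline, in which cells the construct is active, the age of the mice, or whether each library is 1 animal. The p-values below therefore reflect variation among libraries, part of which may be technical.

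Adhesion receptors are surface proteins with a long extracellular region, much of which binds matrix or neighbouring cells, joined to a G protein-coupled receptor of the membrane. Most cut themselves at a conserved site next to the membrane, and the stub that this exposes acts as a tethered agonist that activates heterotrimeric G proteins. In blood, individual members mark cell types: Adgrg1 (GPR56) is known from stem and progenitor cells and platelets, Adgrg3 (GPR97) from granulocytes and Adgre5 (CD97) from most leukocytes.

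Libraries differed in ways beyond the knockdown. Kdm1a itself had 15.5 to 21.0 FPKM in knockdown libraries and 21.2 to 31.1 FPKM in control libraries (FPKM are fragment numbers divided by transcript length and by library size, so levels can be compared between genes). Xist, made from the inactive X chromosome of females, had 94.9 to 175 FPKM in all 4 knockdown libraries and 110 FPKM in control replicate 1, against at most 0.128 FPKM in control replicates 2, 3 and 4, so knockdown and sex cannot be told apart except through control replicate 1. Knockdown replicate 4 stood apart, with the lowest summed B cell markers (1323 FPKM, against 3254 to 3436 FPKM in the other knockdown libraries and 3806 to 4469 FPKM in control libraries) and the highest summed erythroid markers (25170 FPKM, against 799 to 2057 FPKM in the other knockdown libraries and 2338 to 6558 FPKM in control libraries), sums that rest mostly on the globin genes Hbb-bs and Hba-a1. B, T and NK cell markers, as a mononuclear preparation of spleen should hold, were present in every library, while all 6 stromal and fibroblast markers stayed under 1 FPKM. Depth, estimated from the steps between low values, lay between 39000000 and 46200000 fragments per library, and 12567 to 13138 genes reached 1 FPKM.

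Upstream sequence is shown for Adgrg7 and Adgrg1, the 2 receptors whose knockdown and control libraries did not overlap. The values below are per gene and refer to no particular start. Each window runs from 250 bases before to 50 bases after a start annotated in RefSeq on GRCm38.p6, on the strand of the gene, and Adgrg1 has 2 such starts. Capitals mark matches on either strand to GATAA (the core bound by GATA factors), TGTGGT (RUNX), AATCA (GFI1 and GFI1B) or the interferon response element (GAAA, any 2 bases, GAAA).
Adgrg7, chr16:56795809-56796108, minus strand: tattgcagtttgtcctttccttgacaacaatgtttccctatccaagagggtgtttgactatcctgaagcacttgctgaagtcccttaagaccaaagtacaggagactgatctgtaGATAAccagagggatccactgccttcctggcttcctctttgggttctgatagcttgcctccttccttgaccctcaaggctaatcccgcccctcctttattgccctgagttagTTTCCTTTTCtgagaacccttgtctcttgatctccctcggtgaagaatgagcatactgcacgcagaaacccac
Adgrg1, first start, chr8:94976859-94977158, plus strand: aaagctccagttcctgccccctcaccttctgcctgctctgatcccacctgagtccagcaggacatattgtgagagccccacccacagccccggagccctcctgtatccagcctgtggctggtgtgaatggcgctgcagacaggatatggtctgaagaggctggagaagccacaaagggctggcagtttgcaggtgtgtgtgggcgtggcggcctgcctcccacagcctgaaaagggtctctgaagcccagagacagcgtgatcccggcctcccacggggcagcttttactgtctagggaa
Adgrg1, other start, chr8:94984149-94984448, plus strand: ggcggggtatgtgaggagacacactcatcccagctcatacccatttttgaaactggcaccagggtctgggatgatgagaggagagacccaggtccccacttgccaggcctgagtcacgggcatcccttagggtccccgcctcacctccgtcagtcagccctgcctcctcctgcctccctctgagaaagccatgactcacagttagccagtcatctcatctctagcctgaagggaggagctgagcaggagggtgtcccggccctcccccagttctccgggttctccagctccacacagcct
The Adgrg7 window held 1 match to GATAA, at position -135 from the start, and 1 to the interferon response element on the other strand, at position -23. Of 32851 windows of this length over all genes, 25.4% held GATAA and 3.44% the interferon response element. Neither Adgrg1 window held any of the 4 motifs. Windows were at hand for 5 of the 6 receptors, and in those of Adgrg3, Adgrl1 and Adgrl4 no motif matched. Over all genes, 16.8% of windows held TGTGGT and 37.0% held AATCA.

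**Figure D1:**
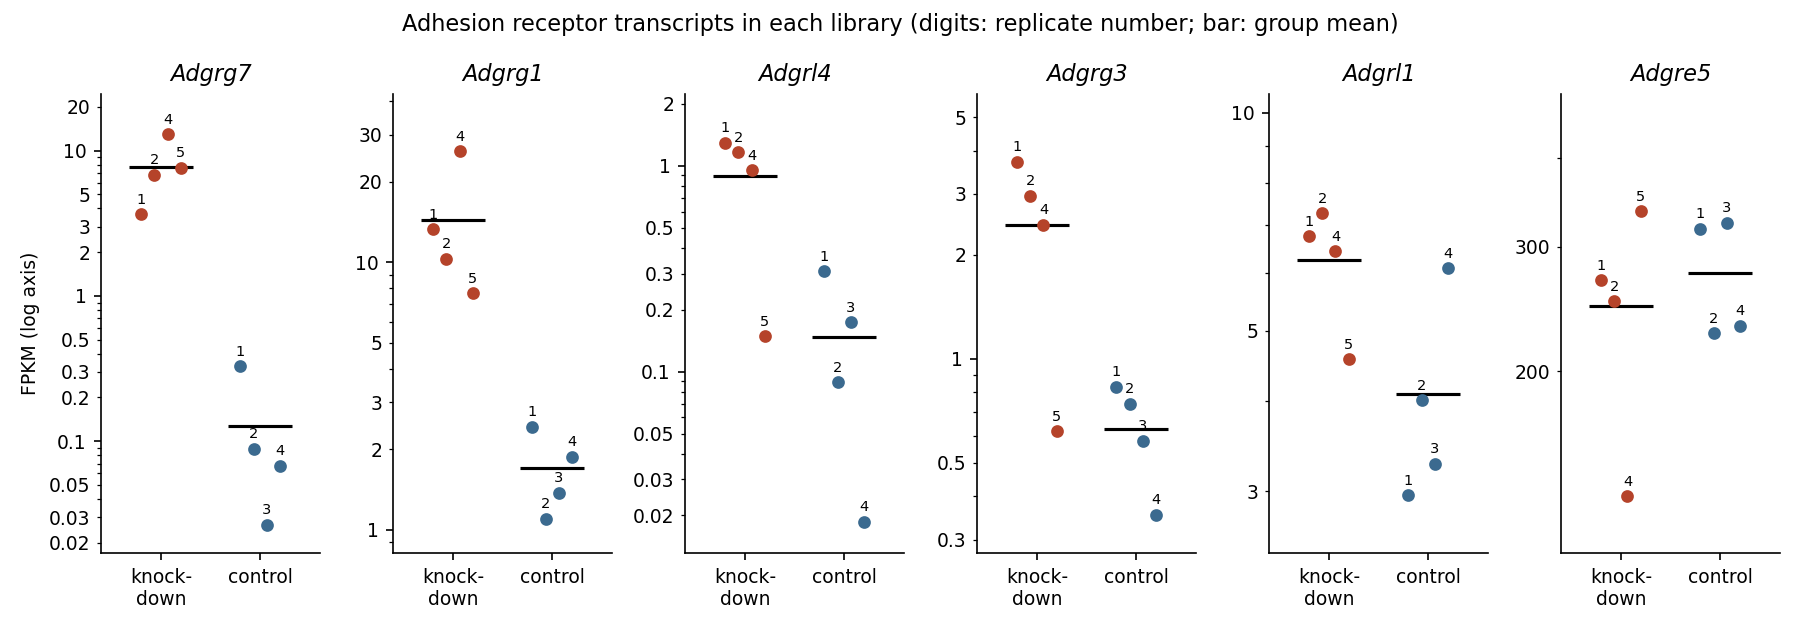
FPKM of the 6 receptors in each library, on log axes that differ between panels, with knockdown libraries in red on the left and control libraries in blue on the right; digits are replicate numbers and bars are group means. Every knockdown library lies above every control library for Adgrg7 and Adgrg1, and the groups overlap in the other 4 panels.

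Adgrg7 (GPR128), a receptor known in the mouse chiefly from intestinal epithelium, had the largest ratio between the group means of the 6. It had 3.63, 6.81, 12.9 and 7.62 FPKM in knockdown replicates 1, 2, 4 and 5, against 0.328, 0.0888, 0.0266 and 0.0678 FPKM in control replicates 1 to 4. The groups did not overlap, and the lowest knockdown library stood 11.1-fold above the highest control library. Its annotation holds 1 transcript (2698 bases), which allowed an estimate of the reads behind these values: 372, 727, 1448 and 783 fragments in the knockdown libraries and 39, 9, 3 and 7 fragments in the control libraries. The control level thus rests on few fragments. The mean of 7.75 ± 3.87 FPKM in knockdown libraries was 60.7 times the mean of 0.128 ± 0.136 FPKM in control libraries (SD, n = 4 each). That ratio depends on control replicate 1, and was 127 without it and 23.6 against it alone. On the log2(FPKM + 1) scale, which understates changes of genes under 1 FPKM, the difference was 2.86. With a pseudocount of 5 in place of 1 it was 1.27, below the 1.45 of Adgrg1, and with 0.1 it was 5.13.

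Adgrg1, which marks blood stem and progenitor cells and is also present on platelets, had 13.3, 10.3, 26.1 and 7.68 FPKM in knockdown replicates 1, 2, 4 and 5. Control replicates 1 to 4 had 2.43, 1.10, 1.38 and 1.88 FPKM. These groups did not overlap either, and knockdown replicate 4 was the highest library for both Adgrg1 and Adgrg7. Mean levels were 14.3 ± 8.17 FPKM in knockdown libraries and 1.70 ± 0.585 FPKM in control libraries (SD, n = 4 each), a ratio of 8.46 and a log2(FPKM + 1) difference of 2.40. Against control replicate 1 alone, the control library that shares Xist with the knockdown libraries, the ratio was 5.90, and without knockdown replicate 4 it was 6.15. Adgrg1 and Adgrg7 were the 2 of 6 receptors whose groups did not overlap. Among the 12890 genes that passed an expression filter (4 or more of the 8 libraries at 1 FPKM or above), 11.2% were higher and 1.9% lower in knockdown libraries without overlap. The filter was passed by 4 of the 6 receptors, by Adgrg7 only through its knockdown libraries. Since the receptors were chosen on this difference, nothing is read from these counts. For the genes tested below, the background is that limma called 1.74% of the 12890 genes at an adjusted p of 0.05, 1.63% as higher and 0.109% as lower in knockdown libraries.

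Adgrg3 and Adgrl4 did not pass that filter, and both were higher in the same 3 of 4 knockdown libraries. Adgrg3, a receptor of neutrophils and other granulocytes, had 3.71, 2.96, 2.44 and 0.617 FPKM in knockdown replicates 1, 2, 4 and 5, against 0.831, 0.742, 0.580 and 0.355 FPKM in control replicates 1 to 4. Knockdown replicate 5 fell within the control range and the other 3 lay above it. The means were 2.43 ± 1.32 FPKM in knockdown libraries and 0.627 ± 0.209 FPKM in control libraries (SD, n = 4 each), a ratio of 3.88 (log2(FPKM + 1) difference 0.98). Adgrl4 (ELTD1), best known from blood vessel endothelium, was low throughout, with 1.30, 1.16, 0.953 and 0.149 FPKM in knockdown replicates 1, 2, 4 and 5 and 0.307, 0.0886, 0.173 and 0.0186 FPKM in control replicates 1 to 4. Again knockdown replicate 5 lay among the controls. The ratio of the Adgrl4 means was 6.06, with 9.52 without control replicate 1 and 2.90 against control replicate 1 alone (log2(FPKM + 1) difference 0.68).

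Adgrl1 (latrophilin-1), a receptor for teneurins and for the black widow toxin that is best known from neurons, differed less. Its levels were 6.75, 7.26, 6.44 and 4.56 FPKM in knockdown replicates 1, 2, 4 and 5 and 2.96, 4.01, 3.28 and 6.10 FPKM in control replicates 1 to 4. Control replicate 4 lay above knockdown replicate 5, so the groups overlapped, and 3 of 4 knockdown libraries exceeded every control. The ratio of means was 1.53 (6.25 ± 1.18 FPKM in knockdown and 4.09 ± 1.41 FPKM in control libraries; SD, n = 4 each) and the log2(FPKM + 1) difference 0.53.

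Adgre5 (CD97), whose extracellular region binds the complement regulator CD55, was by far the most abundant of the 6, with 269, 251, 133 and 337 FPKM in knockdown replicates 1, 2, 4 and 5 and 318, 226, 324 and 232 FPKM in control replicates 1 to 4. The groups overlapped, with knockdown replicate 5 the highest and knockdown replicate 4 the lowest of all libraries. Replicate 4 also had the lowest B cell markers, and the part of B cell RNA in its Adgre5 value was not tested. The means were 248 ± 84.5 FPKM in knockdown libraries and 275 ± 53.2 FPKM in control libraries (SD, n = 4 each). The log2(FPKM + 1) difference was -0.21 with all libraries and 0.064 without knockdown replicate 4. Adgre5 overlaps Ddx39 on the opposite strand and a miRNA gene on its own, Adgrl1 overlaps 3 annotated genes on the opposite strand, and Adgrg7 overlaps 1 processed pseudogene on the opposite strand. Whether counting used strand is not given in the sources used here, so reads of these overlaps may not be told apart.

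The order of the receptors by level differed between the groups. In knockdown libraries it was Adgre5, Adgrg1, Adgrg7, Adgrl1, Adgrg3 and Adgrl4, and in control libraries Adgre5, Adgrl1, Adgrg1, Adgrg3, Adgrl4 and Adgrg7. Adgre5 stood clear of the next receptor in both groups, at a mean above that of 97.6% of expressed genes in knockdown libraries and of 98.0% in control libraries. In knockdown libraries the levels from Adgrg1 down to Adgrl1 overlapped from each receptor to the next, and so did those of Adgrg3 and Adgrl4. In control libraries the ranges of Adgrl4 and Adgrg7 overlapped, and the other neighbours in the order were apart. Adgrg7 was thus among the 2 receptors of least transcript in each control library and ranked between 3 and 5 of the 6 in knockdown libraries.

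Adgre5 made up 82.2%, 80.9%, 59.8% and 84.5% of the FPKM summed over the whole family of 30 genes in knockdown replicates 1, 2, 4 and 5, against 90.7%, 89.7%, 92.5% and 90.6% in control replicates 1 to 4. Adgrg1, Adgrg3, Adgrg7, Adgrl1 and Adgrl4 together had 20.6 to 48.9 FPKM in knockdown libraries and 5.43 to 8.41 FPKM in control libraries. All 6 receptors reached 1 FPKM in knockdown replicates 1 and 2, 5 in replicate 4 and 4 in replicate 5, against the same number, 3, in each control library.

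Of the other 23 family genes, 4 passed the expression filter, and none of them was past the threshold (limma, Benjamini-Hochberg adjustment over 12890 genes; 1 had an unadjusted p under 0.05). All 4 had positive differences, with a median of 0.59 on the log2(FPKM + 1) scale against 0.13 over all genes tested. Adgre4, a macrophage receptor close to F4/80, had 4.27, 6.20, 9.70 and 7.01 FPKM in knockdown replicates 1, 2, 4 and 5 and 4.12, 4.59, 3.71 and 1.56 FPKM in control replicates 1 to 4 (log2 difference 0.81 ± 0.30 SE, adjusted p = 0.195). Adgre1, the F4/80 antigen itself, had 4.98, 6.34, 19.3 and 19.6 FPKM in knockdown replicates 1, 2, 4 and 5, against 4.93, 7.83, 7.43 and 2.09 FPKM in control replicates 1 to 4 (adjusted p = 0.320 in limma). Knockdown replicates 4 and 5 lay above every control library. Summed monocyte and macrophage markers, which include Adgre1, were 411 to 811 FPKM in knockdown libraries and 119 to 324 FPKM in control libraries, and their part in these values was not tested. The largest part of each sum was Lyz2, at a mean of 317 FPKM in knockdown and 123 FPKM in control libraries, with overlap. All 9 markers had positive differences. Of them 1, Cx3cr1, was higher without overlap, as were 11.2% of all 12890 genes tested. Celsr1, a cadherin receptor of planar polarity, had 1.73 ± 0.440 FPKM in knockdown and 1.13 ± 0.492 FPKM in control libraries (SD, n = 4 each; adjusted p = 0.362 in limma). Adgrl2, latrophilin-2, had 2.81 ± 1.84 FPKM in knockdown and 2.10 ± 0.958 FPKM in control libraries (SD, n = 4 each; adjusted p = 0.700 in limma). Of the 19 genes under the filter, 17 never reached 1 FPKM, and 2 of these, Adgra1 and Adgrg4, were listed at 0 in every library. Adgra3, Adgrg2 and Adgrg6, named after their values were seen, were higher in every knockdown library than in any control library. Their means were 0.950, 0.308 and 0.415 FPKM in knockdown libraries and 0.124, 0.0128 and 0.123 FPKM in control libraries. Adgrg2 and Adgrg6 stayed under 1 FPKM throughout. The share of all genes under the filter that separate in this way was not taken, so nothing is read from it.

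**Figure D2:**
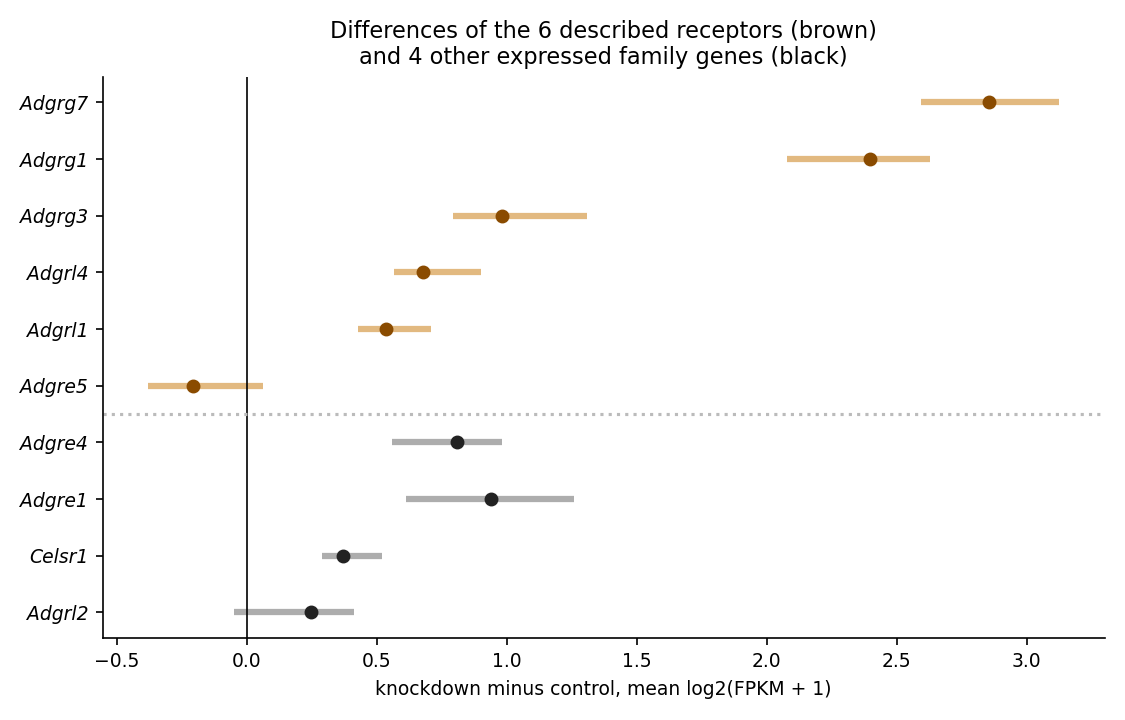
Difference of mean log2(FPKM + 1), knockdown minus control, for the 6 receptors (brown, above the dotted line) and the 4 other expressed family genes (black); bars span the values with each library left out in turn. Adgrg7 and Adgrg1 lie at 2.86 and 2.40, and the bars of Adgre5 and Adgrl2 cross 0.

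Of the 6 receptors, 4 lie on chromosome 8. Adgrg1 (94974751 to 95014217) and Adgrg3 (95017692 to 95045250; GENCODE M21, GRCm38, both on the plus strand) follow each other within 70.5 kb, with 3.5 kb between them. Adgre5 (83723251 to 83741326, minus strand) and Adgrl1 (83900105 to 83941954, plus strand) lie elsewhere on that chromosome, 158.8 kb apart. Adgrg7 is on chromosome 16 (56724609 to 56795855, minus strand) and Adgrl4 on chromosome 3 (151437887 to 151545086, plus strand). Of the adjacent pair, Adgrg1 had the larger difference between knockdown and control libraries (2.40, and 0.98 for Adgrg3, on the log2(FPKM + 1) scale). Drc7, a gene of the ciliary dynein regulatory complex 9.9 kb beyond Adgrg3, had 0.762 ± 1.02 FPKM in knockdown libraries and 0.0834 ± 0.111 FPKM in control libraries, and the groups overlapped. Of 15 neighbouring protein-coding genes examined within 60 kb of a receptor, 11 were tested and 0 passed the threshold in limma, with 2 at an unadjusted p under 0.05. Ddx39, an RNA helicase gene, was the 1 of these 11 that was higher in all knockdown libraries without overlap. It had 99.5 FPKM in knockdown and 59.9 FPKM in control libraries (adjusted p = 0.183 in limma). Over all 12890 genes tested, 11.2% were higher without overlap, so nothing is read from this 1 gene.

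Markers of several other cell types moved with the groups. Fewer cells of a type and less RNA per cell cannot be told apart in such bulk samples. Stem and progenitor markers summed to 43.0, 44.3, 43.9 and 17.3 FPKM in knockdown replicates 1, 2, 4 and 5 and to 4.57 to 9.55 FPKM in control libraries, with all 8 genes higher in every knockdown library and Mecom and Hlf under 1 FPKM throughout. Megakaryocyte and platelet markers summed to 60.4, 41.0, 48.2 and 19.3 FPKM in those knockdown libraries and to 6.93 to 14.9 FPKM in control libraries. Of these 8 genes, 4 were higher without overlap. Ppbp ran the other way, at a mean of 0.916 FPKM in knockdown and 2.05 FPKM in control libraries, with overlap. Both sums were lowest among the knockdown libraries in replicate 5, as were Adgrg1, Adgrg3, Adgrl1 and Adgrl4, whereas Adgrg7 was lowest in replicate 1. Of the 8 erythroid markers, 2 were higher in knockdown libraries without overlap: Klf1, an erythroid transcription factor, averaged 96.1 ± 83.9 FPKM in knockdown and 16.9 ± 3.11 FPKM in control libraries, and Epor, the erythropoietin receptor, 32.2 ± 27.6 FPKM in knockdown and 5.42 ± 0.664 FPKM in control libraries (SD, n = 4 each). Both were highest in knockdown replicate 4, as were Adgrg1 and Adgrg7. Endothelial markers summed to 55.0 to 73.9 FPKM in knockdown libraries and 38.0 to 52.1 FPKM in control libraries, with 4 of 9 genes (Egfl7, Tie1, Kdr and Tek) higher and 1 (Cldn5) lower without overlap. These sums rest mostly on Pecam1 and, in knockdown libraries, also on Egfl7. Pecam1 had 40.1 ± 12.2 FPKM in knockdown and 43.3 ± 6.43 FPKM in control libraries (SD, n = 4 each), with overlap. Egfl7, a secreted vessel protein, averaged 20.5 ± 10.4 FPKM in knockdown and 0.937 ± 0.364 FPKM in control libraries (SD, n = 4 each). Kdr, Tek, Emcn and Cldn5 stayed under 1 FPKM in every library, and Cdh5, the defining cadherin, was at 0.303 to 0.874 FPKM in knockdown and 0.620 to 1.19 FPKM in control libraries. Neutrophil markers ran the other way from Adgrg3, with sums of 15.9 to 146 FPKM in knockdown libraries and 65.8 to 444 FPKM in control libraries. Eosinophil, basophil and mast cell markers summed to 9.97 to 19.9 FPKM in knockdown and 3.44 to 13.0 FPKM in control libraries, with Epx and Siglecf under 1 FPKM throughout. Over all 12890 genes past the filter, 11.2% were higher and 1.9% lower without overlap. That filter was passed by 3 of the 8 stem and progenitor genes and 5 of the 8 megakaryocyte and platelet genes. All 8 erythroid and 2 of the 9 endothelial genes passed it too. The share for genes under the filter was not taken, so nothing is read from the counts without overlap. The part of these cell types in the receptor values was not tested.

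**Figure D3:**
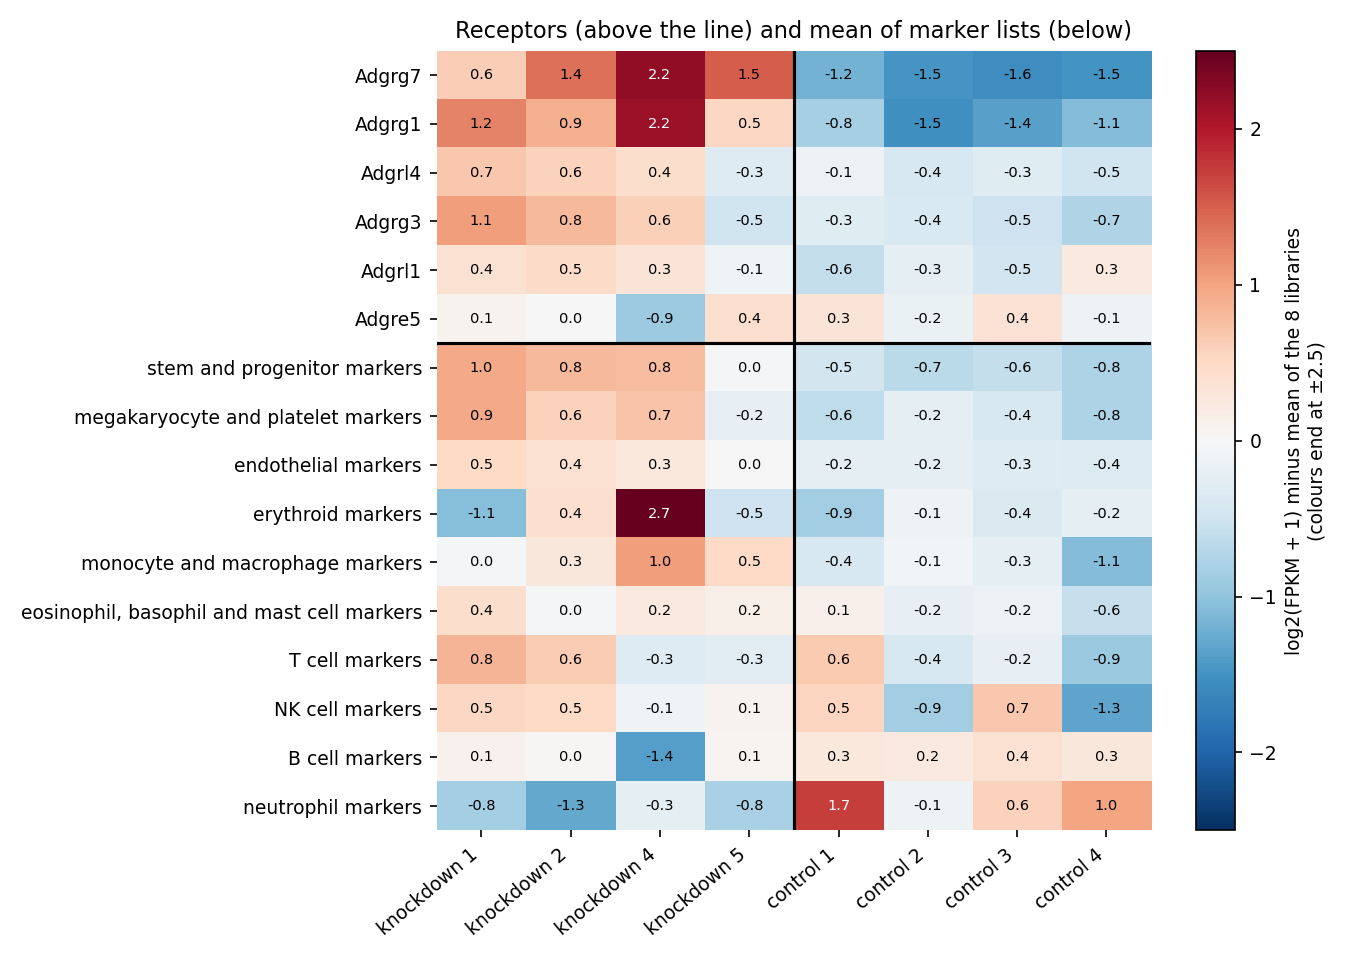
Heat map of log2(FPKM + 1) minus its mean over the 8 libraries, for the 6 receptors (above the line) and for the mean of each marker list other than the stromal one (below), with knockdown libraries on the left and control libraries on the right. Adgrl4 and Adgrg3 show positive values in knockdown replicates 1, 2 and 4 and negative ones in knockdown replicate 5, and Adgre5 and the B cell markers are lowest in knockdown replicate 4.

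Among known ligands and partners of the receptors, of 21 genes, 9 were tested, 1 rose and 0 fell (median difference 0.11 on the log2(FPKM + 1) scale, against 0.13 over all genes tested). The one that rose was Itga5, the integrin chain of the fibronectin receptor that human CD97 binds, with 8.24, 16.1, 25.5 and 13.2 FPKM in knockdown replicates 1, 2, 4 and 5 against 2.19, 1.28, 1.66 and 1.93 FPKM in control replicates 1 to 4 (log2 difference 2.51 ± 0.30 SE, adjusted p = 0.0102 in limma). Its call was lost without knockdown replicate 2 (adjusted p = 0.0805) or control replicate 4 (adjusted p = 0.0644). Tgm2, the transglutaminase that binds GPR56, had 9.45 ± 4.01 FPKM in knockdown and 4.39 ± 0.964 FPKM in control libraries (SD, n = 4 each; adjusted p = 0.160 in limma). Tenm4, a teneurin of the family that latrophilins bind, had 1.77 ± 0.912 FPKM in knockdown and 4.29 ± 2.20 FPKM in control libraries (SD, n = 4 each; adjusted p = 0.223 in limma). Cd55, the ligand of CD97, had 95.5, 80.5, 49.1 and 85.2 FPKM in knockdown replicates 1, 2, 4 and 5, against 66.6, 71.3, 63.4 and 45.8 FPKM in control replicates 1 to 4, and the groups overlapped (adjusted p = 0.502 in limma).

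Among genes of G protein signalling (subunits, exchange factors, kinases and arrestins), 25 of 27 genes were tested, 2 rose and 0 fell (median difference -0.07 on the log2(FPKM + 1) scale). Gna15, a blood cell member of the Gq class that many receptors can use, had 9.99, 18.8, 29.9 and 10.3 FPKM in knockdown replicates 1, 2, 4 and 5 against 3.70, 3.44, 4.89 and 1.86 FPKM in control replicates 1 to 4 (log2 difference 1.94 ± 0.36 SE, adjusted p = 0.0319 in limma). Gna12, a subunit of the class to which GPR56 and CD97 couple, had 11.3, 19.3, 27.8 and 15.6 FPKM in those knockdown replicates against 7.82, 6.72, 6.19 and 6.69 FPKM in control replicates 1 to 4 (log2 difference 1.25 ± 0.25 SE, adjusted p = 0.0451 in limma). For neither gene did the groups overlap. Gna13, the close relative of Gna12, had 26.8 ± 5.04 FPKM in knockdown and 30.1 ± 3.66 FPKM in control libraries (SD, n = 4 each; adjusted p = 0.624 in limma). Arrb1, an arrestin gene, had 43.2 ± 23.7 FPKM in knockdown and 24.0 ± 4.69 FPKM in control libraries (SD, n = 4 each; adjusted p = 0.272 in limma). Gna12 was no longer called without knockdown replicate 2, 4 or 5 (adjusted p = 0.196, 0.0645 and 0.0636) or control replicates 1 to 4 in turn (adjusted p = 0.0882, 0.125, 0.117 and 0.120), and Gna15 without knockdown replicate 2 or 4 (adjusted p = 0.161 and 0.0540) or control replicates 1 to 4 in turn (adjusted p = 0.0761, 0.0964, 0.0756 and 0.102).

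The genes closest to each expressed receptor over the 8 libraries were taken by Pearson r of log2(FPKM + 1). As the libraries form 2 groups, such an r also carries the difference between them, and it is given as a description. Adgrg1 was closest to Csf2rb2, a cytokine receptor gene (r = 0.99; 28.4 FPKM in knockdown and 1.65 FPKM in control libraries), Rab38 and Nudt12 (r = 0.99 each). Adgrg7 was closest to Itga5, Podxl, the gene of the sialomucin podocalyxin (21.7 FPKM in knockdown and 0.0920 FPKM in control libraries), and Grb10, a signalling adaptor (r = 0.99 each), of which Itga5 is also the partner gene that rose. Adgre5 was closest to Eif2ak4, the amino acid sensing kinase GCN2 (r = 0.99), Bank1, a B cell adaptor, and Nid1 (r = 0.98 each), and Adgrl1 to Pabpn1, Uba7 and Ccdc40 (r = 0.98, 0.98 and 0.97). With each group centred on its own mean, which takes the difference between groups out, the closest were Hist3h2a, Tab3 and Hist1h1c to Adgrg1 (r = 0.97 each), Pcyt1a, Mfsd12 and Usp46 to Adgrg7 (r = 0.98 to 0.99), Eif2ak4, Rnf122 and Tmem184c to Adgre5 (r = 0.98 to 0.99), and Snx32, Kmt5c and Tgfb1 to Adgrl1 (r = 0.98 to 0.99). Adgre5 kept 1 gene, Eif2ak4, under both measures, and Adgrg1, Adgrg7 and Adgrl1 kept 0. Centring alters little for Adgre5, whose groups differed little, and more for Adgrg1 and Adgrg7, which were chosen on that difference. Each gene named is also the pick of all genes compared over only 8 libraries, so nothing is read from these counts.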

How the data were processed

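Values were the FPKM that the authors deposited in 1 table of 54018 identifiers and 8 libraries of polyA RNA. CASAVA and Cufflinks appear in the submitters' processing notes, with no version. Which aligner, gene models and build were used, and whether strand was, is not given in the sources used here. Identifiers were named with GENCODE M21 (53865 matched). The lists and members were chosen with earlier results of these data known. Genes with at least 1 FPKM in at least 4 libraries were tested for a difference between the 4 knockdown and the 4 control libraries by limma 3.58.1 in R 4.3.3 (log2(FPKM + 1), mean-variance trend, no covariate). The p-values of all 12890 genes were adjusted together after Benjamini-Hochberg, and 0.05 was the threshold. The fit was checked on simulated data. Plots were drawn with matplotlib 3.10.9, and tables made with pandas 2.3.3 and numpy 2.4.6 under Python 3.11.15.

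Depth was taken as the number of fragments at which low FPKM of genes with 1 transcript of at least 1500 bases, less 150 bases, came out as whole numbers of fragments. Between 98.9% and 99.5% of these values lay within 5% of their own size from a whole number. Depth and the 150 bases were picked to make this share highest, so it is no separate check on them. Named were the receptors, other family genes past the filter, list genes past the threshold with the 3 of smallest p per list, and the 3 genes closest to each tested receptor, other than antigen receptor segments, pseudogenes and predicted models. Gene neighbours, motifs, Cd55, Gna13, Gnas, Adgra1, Adgra3, Adgrg2, Adgrg4 and Adgrg6 fall outside that rule. So does each single marker gene named, such as Cdh5, Egfl7, Pecam1, Tie1, Kdr, Tek, Cldn5, Emcn, Klf1, Epor, Ppbp, Lyz2 and Cx3cr1. All of these were chosen after values were seen. Alternatives changed the pseudocount, filter, scaling and trend, left out libraries, and added a replicate block or sex. Of the 7 receptors, 1 is not reported here, nor is 1 neighbouring gene.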

Additional observations from a re-analysis of the deposited data

Results flagged for a closer look

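Among 16 genes of the family and its partners, each examined in both groups (32 groups of 4 libraries), 1 library lay far from the other 3 of its group. Adgrl2, latrophilin-2, had 5.57 FPKM in knockdown replicate 5, against 1.68 to 2.01 FPKM in the other knockdown libraries. Chance alone marks about 1 in 20 groups in this way.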

How the results depend on the processing

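Over all genes, 224 passed the threshold in the fit reported. The count was 24 with a pseudocount of 5, 2 without a filter on low values, 71 at a mean of at least 5 FPKM, 124 with median-of-ratios scaling, 126 with quantile normalization, 60 without replicate 4 of both groups and 2 with sex as a covariate. It ranged from 6 to 216 with 1 library left out: 6 without knockdown replicate 2, 106 without knockdown replicate 4, and 85, 39, 28 and 7 without control replicates 1 to 4. The 1 ligand or partner gene past the threshold became 0 without a filter on low values and with sex as a covariate, and 0 to 1 with 1 library left out. The 2 G protein signalling genes became 0 with a pseudocount of 5, without a filter, at a mean of at least 5 FPKM, with either scaling, without replicate 4 of both groups and with sex as a covariate, and 0 to 2 with 1 library left out. The 0 other family genes stayed 0 under every alternative run. With replicate number as a block all 3 of these counts and that over all genes were 0, on 2 residual degrees of freedom. Same-numbered libraries deviated from their group means with r = 0.16, 0.05 and -0.12 for replicates 1, 2 and 4. For differently numbered libraries r was -0.15 to 0.15. Such values cannot decide whether the numbers pair the libraries, and the fit reported does not pair them. The difference of Adgre5 was -0.38 to 0.064 with 1 library left out, that of Celsr1 -0.074 with sex as a covariate, and that of Adgrl2 -0.048 (without knockdown replicate 5) to 0.41 with 1 library left out, -0.094 with the replicate block and -0.25 with sex as a covariate. A fit with sex compares knockdown with control replicate 1 alone. The other receptors kept their direction under all alternatives, but not their size. With pseudocounts of 0.1 and 5 the differences were 5.13 and 1.27 for Adgrg7, 1.61 and 0.38 for Adgrg3, and 1.88 and 0.19 for Adgrl4. That of Adgrg1 was 1.45 with a pseudocount of 5, and that of Adgrl1 0.86 with sex as a covariate. The median of all genes was 0.13, 0.00 after median-of-ratios scaling and -0.03 after quantile normalization, and all receptors kept their sign under both. The cause of these changes was not tested. Control levels of Adgrg7 rest on few fragments, estimated at 3 to 39 per library. Those of Adgrl4 were 0.0186 to 0.307 FPKM, and their fragments were not estimated. The limit that depth sets on either was not tested.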
